A study of Mus musculus with 2 samples.

Results

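The genes for cytosolic translation initiation factors (eIFs) and elongation factors (eEFs) were followed in liver messenger RNA of Adipoq-/- mice, which lack the adipocyte hormone adiponectin, and of wild-type mice. Members were taken by symbol, as every row beginning with Eif1 to Eif6 or with Eef1 or Eef2. The Eif2ak kinases and symbols holding -ps, which marks pseudogenes, were left out. This gave 58 of 13326 gene symbols. Both genotypes were C57BL/6J males, 12 weeks old and fasted overnight, and total RNA of 9 to 10 mice of a genotype was pooled into 1 library, so that the comparison rests on 1 Adipoq-/- library and 1 wild-type library. With nothing to measure the spread within a genotype, no test was run and every difference below is a description of this pair of libraries. Adipoq was not analysed here, and the genotype labels rest on the submitters' word. All 7 hepatocyte markers that were looked up were present, with albumin (Alb) at 14031 FPKM in the Adipoq-/- and 17522 FPKM in the wild-type library.

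Initiation begins when eIF2 carries the initiator tRNA to the small ribosomal subunit, which eIF1, eIF1A, eIF3 and eIF5 prepare for scanning. The eIF4F complex (the cap-binding eIF4E, the scaffold eIF4G and the helicase eIF4A) brings this assembly to the capped end of the messenger RNA, and eIF5B then joins the large subunit. eEF1A delivers aminoacyl-tRNAs to the ribosome during elongation, eEF1B recharges eEF1A with GTP, and eEF2 moves the ribosome along. In liver, nutrients and insulin act on this machinery through mTORC1, which releases eIF4E from its binding proteins, and stress acts on it through phosphorylation of eIF2.

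FPKM divides the fragments of a gene by the length of its transcript and by the size of the library, so levels can be compared between genes. The libraries listed 11325 genes at 1 FPKM or more in the Adipoq-/- and 11749 in the wild-type library. The depth in reads is unknown. Each difference is given as log2((Adipoq-/- FPKM + 1) / (wild-type FPKM + 1)) minus the median of this ratio over the 11985 genes with at least 1 FPKM in either library, and is called the relative log2 ratio. That median was -0.15 before it was subtracted. The scale understates differences of low genes. A relative log2 ratio at or beyond log2 of 1.5 in either direction was counted as 1.5-fold apart. In bulk liver RNA, a change in the number of cells of a type and a change in RNA per cell cannot be told apart.

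The translation factors were abundant. Their median level was 24.0 FPKM in the Adipoq-/- and 26.6 FPKM in the wild-type library, against 6.44 and 7.30 FPKM over all genes tested. Together they made up 0.859% of summed FPKM in the Adipoq-/- and 0.852% in the wild-type library. Eef1a1 alone held 60.5% of their sum in the Adipoq-/- and 55.4% in the wild-type library. The remaining members summed to 3028 FPKM in the Adipoq-/- and 3033 FPKM in the wild-type library. The 5 most abundant after Eef1a1 were Eef1b2, Eif4g2, Eif5a, Eif4a2 and Eef2 (by the mean of both libraries), all described below with their roles.

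**Figure D1:**
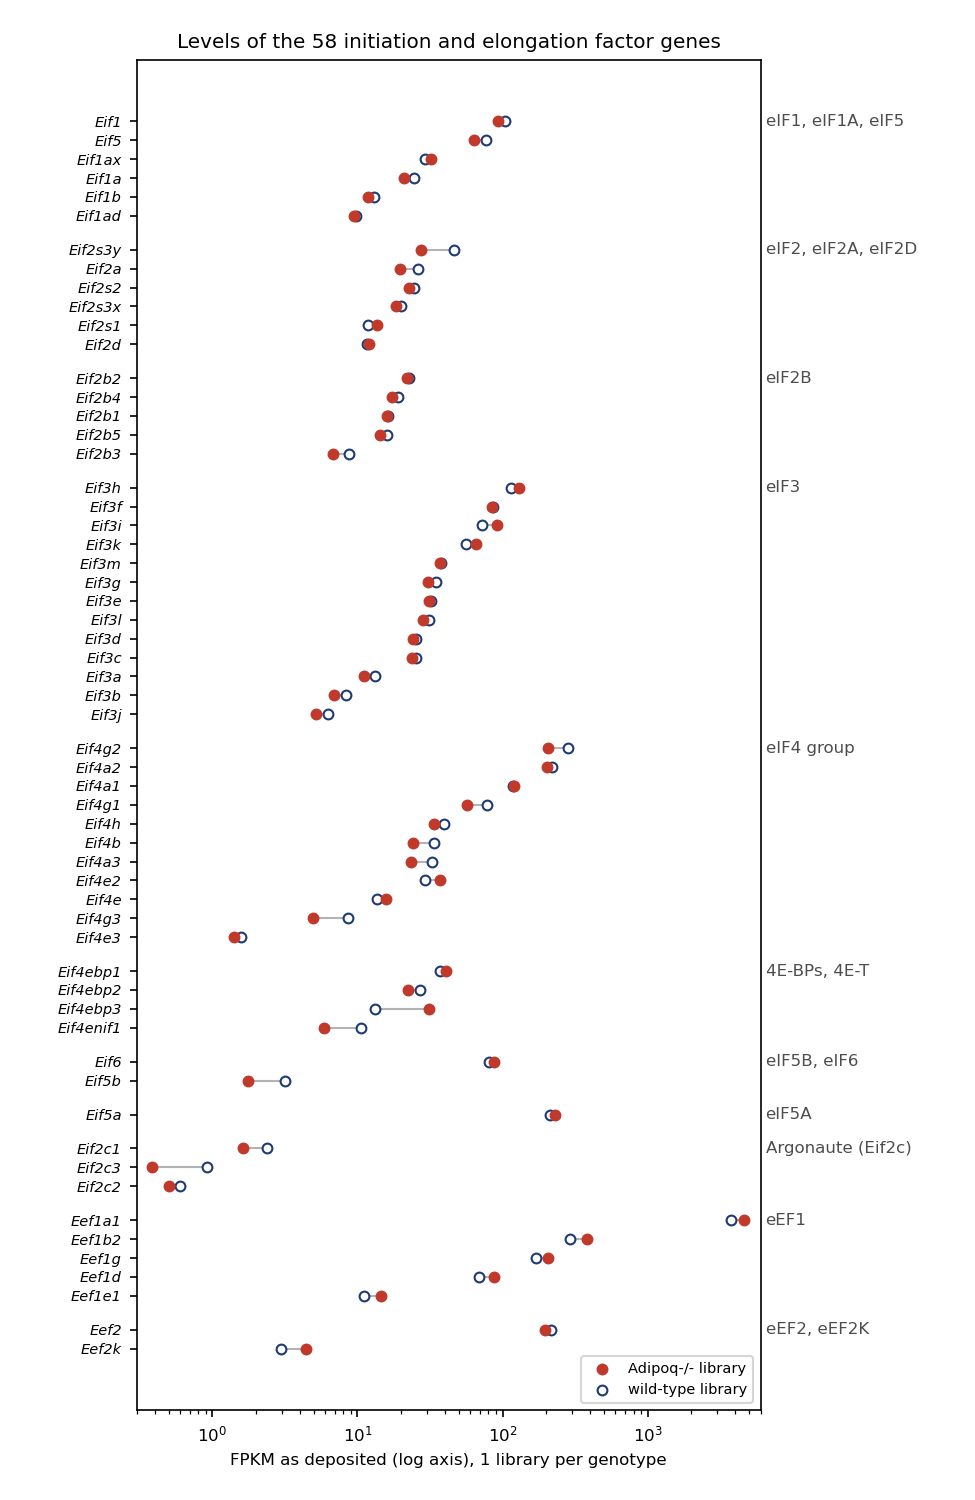
FPKM of each of the 58 members (log axis) in the Adipoq-/- library (filled) and the wild-type library (open), grouped by role and ordered by wild-type level. Eef1a1 lies far to the right at 4638 FPKM in the Adipoq-/- and 3769 FPKM in the wild-type library, and the widest gap between the libraries among members over 5 FPKM belongs to Eif4ebp3.

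Of the 58 members, 56 reached 1 FPKM in at least 1 library, and Eif2c2 and Eif2c3 did not. The median relative log2 ratio of the 56 was 0.06, with a range of -0.60 to 1.33. The interquartile range of the members was -0.09 to 0.28, and that of all genes tested -0.18 to 0.25. Above the all-gene median lay 36 of 56 members (64.3%), against 50% of all genes tested. Abundant genes lay higher as a class: above the all-gene median were 33 of 46 members averaging 10 FPKM or more, and 60.5% of all genes at that level. At equal upper quartiles 25 of 56 members lay above 0 (44.6%), against 39.4% of all genes tested. On FPKM as deposited, 19 of 56 were higher in the Adipoq-/- library (33.9%), against 33.1% of all genes tested, so the direction of the list as a whole rests on the centring. Among those averaging 10 FPKM or more the count was 18 of 46, against 44.1% of all such genes. Eif4ebp3 and Eef2k were at least 1.5-fold higher (6.73% of all genes tested were), and Eif4enif1 was at least 1.5-fold lower (2.61% of all genes were). In either direction this made 3 of 56 members, against 9.34% of all genes. Of the 46 abundant members 1 was 1.5-fold higher and 0 lower, against 9.6% and 1.92% of all genes at that level (11.5% in either direction). As a list the factors therefore lay near the background, and the differences described next are between members.

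**Figure D2:**
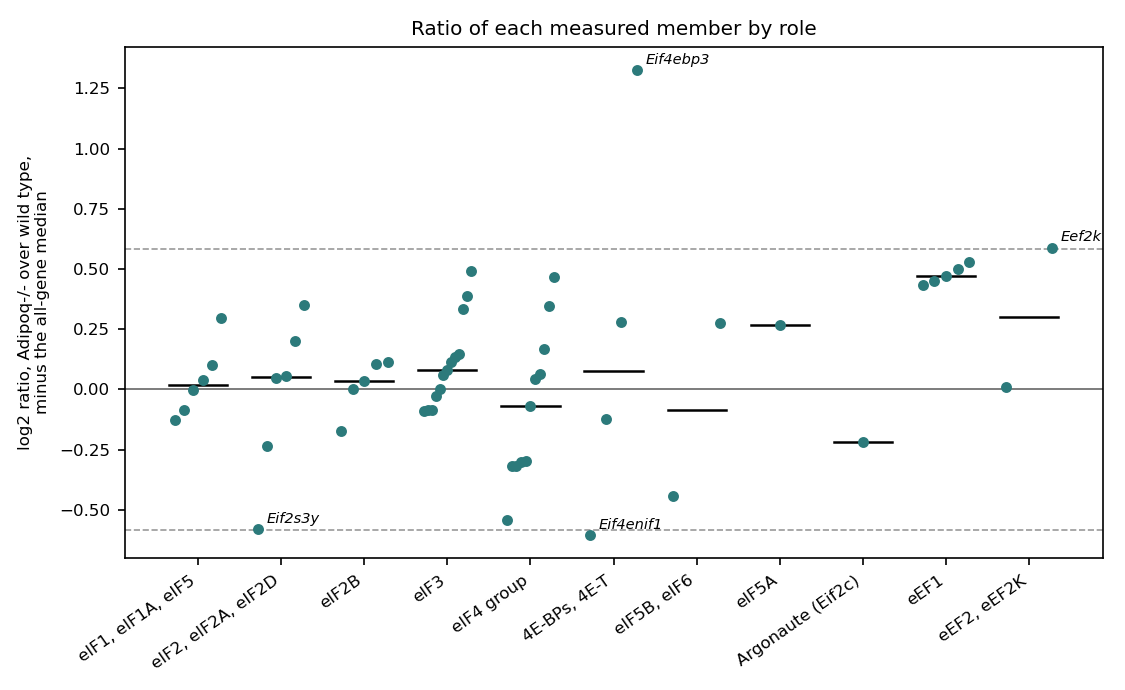
Relative log2 ratio (Adipoq-/- over wild type, minus the all-gene median) of the 56 measured members by role, with the median of each role as a bar and dashed lines at 1.5-fold in either direction. The 5 eEF1 genes sit together between 0.43 and 0.53, while the eIF4 group spreads on both sides of 0 and Eif4ebp3 stands alone at 1.33.

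Among the elongation factors, the eEF1 genes were higher in the Adipoq-/- library by nearly the same amount. Eef1a1, which carries aminoacyl-tRNA, stood at 4638 FPKM in the Adipoq-/- and 3769 FPKM in the wild-type library, 23.1% higher as deposited. The subunits of its exchange complex eEF1B differed by a like amount. Eef1b2, the catalytic beta subunit, was at 382 FPKM in the Adipoq-/- and 294 FPKM in the wild-type library (29.98% higher). Eef1d, the delta subunit, was at 86.8 and 69.3 FPKM (Adipoq-/- and wild type, 25.2% higher). Eef1g, the gamma subunit that anchors the complex, was at 205 FPKM in the Adipoq-/- and 169 FPKM in the wild-type library (21.5% higher). Eef1e1, which encodes a small protein bound to the aminoacyl-tRNA synthetase complex, was at 14.5 FPKM in the Adipoq-/- and 11.2 FPKM in the wild-type library (29.9% higher). All 5 were thus higher in the Adipoq-/- library on the deposited values, as were 33.1% of all genes tested.

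The relative log2 ratios of the 5 eEF1 genes lay between 0.43 (Eef1g) and 0.53 (Eef1b2), with a median of 0.47, against a median of 0 and an interquartile range of -0.18 to 0.25 over all genes tested. None of the 5 reached 1.5-fold. They stayed above 0 under every scaling tried, from 0.12 to 0.22 when the libraries were set to equal summed FPKM. The 3 eEF1B subunits kept their proportions: the most abundant, Eef1b2, stood 4.40 times above the least abundant, Eef1d, in the Adipoq-/- library and 4.24 times in the wild-type library. An exon of Eef1b2 overlaps one of Ndufs1 on the opposite strand in GENCODE M21. Ndufs1 differed in the other direction, at 26.0 FPKM in the Adipoq-/- and 37.8 FPKM in the wild-type library. Whether the counting used strand is not given in the sources used here.

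Eef2, the translocation factor, did not share this difference. It stood at 197 FPKM in the Adipoq-/- and 217 FPKM in the wild-type library, with a relative log2 ratio of 0.01. Eef2k, the kinase that inactivates eEF2 by phosphorylation, was low in both libraries, at 4.39 FPKM in the Adipoq-/- and 2.98 FPKM in the wild-type library. Its relative log2 ratio of 0.59 lay just past the 1.5-fold mark, and it did not pass on FPKM as deposited (0.44). GENCODE M21 has an antisense gene, Gm15774, that overlaps an exon of Eef2k.

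The cap-binding complex differed by subunit. All 3 genes of the eIF4G scaffold family were lower in the Adipoq-/- library. Eif4g1, the main scaffold, was at 56.5 FPKM in the Adipoq-/- and 78.7 FPKM in the wild-type library, a relative log2 ratio of -0.32. Eif4g2, a relative (also called DAP5) that lacks the eIF4E-binding part, was at 205 FPKM in the Adipoq-/- and 285 FPKM in the wild-type library, also -0.32. Eif4g3 was at 4.93 FPKM in the Adipoq-/- and 8.60 FPKM in the wild-type library, -0.54. Their summed level was 267 FPKM in the Adipoq-/- and 372 FPKM in the wild-type library, while the share of each paralog in that sum was close between the libraries. Eif4g2 held 77.0% in the Adipoq-/- and 76.5% in the wild-type library. All 3 stayed lower under every scaling tried. None was 1.5-fold apart on the relative log2 ratio as defined, but Eif4g3 was with a pseudocount of 0.1, on FPKM as deposited and at equal upper quartiles, and all 3 were at equal summed FPKM.

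The cap-binding proteins went the other way. Eif4e stood at 15.7 FPKM in the Adipoq-/- and 13.6 FPKM in the wild-type library (relative log2 ratio 0.35). Eif4e2, a cap-binding relative (4EHP) that represses translation, was at 36.9 FPKM in the Adipoq-/- and 29.4 FPKM in the wild-type library (0.47). Both stayed above 0 under every scaling tried. Eif4e3 was near the floor, at 1.42 FPKM in the Adipoq-/- and 1.57 FPKM in the wild-type library. Eif4e2 held 68.3% of the family's sum in the Adipoq-/- and 66.0% in the wild-type library. A pseudogene row 98.6% identical to Eif4e, Gm7327, was at 19.0 FPKM in the Adipoq-/- and 14.7 FPKM in the wild-type library, above Eif4e itself. The FPKM of Gm7327 was added to that of Eif4e without rescaling, though Gm7327 aligned over 654 bases and Eif4e was 4991 bases long. On this sum, which overweights the copy, the share of Eif4e2 was 50.5% in the Adipoq-/- and 49.6% in the wild-type library. That of Eif4e was 47.6% and 47.7%. These are messenger RNA levels and say nothing of the proteins.

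The helicase genes stood apart from each other as well. Eif4a1 was at 119 FPKM in the Adipoq-/- and 118 FPKM in the wild-type library (relative log2 ratio 0.17), and Eif4a2 at 204 FPKM in the Adipoq-/- and 220 FPKM in the wild-type library (0.04). Eif4a3, which serves in the exon junction complex rather than in initiation, was lower, at 23.4 FPKM in the Adipoq-/- and 32.4 FPKM in the wild-type library (-0.30). The helicase cofactors differed too. Eif4b was at 24.2 FPKM in the Adipoq-/- and 33.4 FPKM in the wild-type library (-0.30), and Eif4h at 33.7 FPKM in the Adipoq-/- and 39.4 FPKM in the wild-type library (-0.07). Over the 11 genes of the eIF4 group, 5 lay above the all-gene median and 6 below, with a median of -0.07 (0.02 after correction for transcript length).

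The largest ratio of any member belonged to a repressor of eIF4E. Eif4ebp3, which encodes 4E-BP3, stood at 31.3 FPKM in the Adipoq-/- and 13.3 FPKM in the wild-type library, 2.35-fold higher as deposited. Its relative log2 ratio of 1.33 ranked 33 from the top among 11985 genes, and it was 0.97 after correction for transcript length. Its paralogs did not do the same. Eif4ebp1 was at 40.6 FPKM in the Adipoq-/- and 37.1 FPKM in the wild-type library (0.28, and -0.03 at equal summed FPKM), and Eif4ebp2 at 22.2 FPKM in the Adipoq-/- and 27.1 FPKM in the wild-type library (-0.12). Eif4ebp3 therefore made up 33.2% of the summed 4E-BP level in the Adipoq-/- and 17.2% in the wild-type library, and moved past Eif4ebp2 in order. The sum of the family was 94.1 FPKM in the Adipoq-/- and 77.5 FPKM in the wild-type library.

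Eif4ebp3 has a short transcript, 744 bases in GENCODE M21, and shares exon sequence there with a longer gene model on the same strand (AC115631.1). The upstream neighbour Ankhd1, looked up after these values were seen, was at 5.05 FPKM in the Adipoq-/- and 7.51 FPKM in the wild-type library. Reads of transcripts that run through both genes could have been counted for either, and this was not tested. Eif4enif1, which encodes the eIF4E transporter 4E-T, had the lowest ratio of the 56 members. It stood at 5.89 FPKM in the Adipoq-/- and 10.6 FPKM in the wild-type library, with a relative log2 ratio of -0.60 that ranked 288 from the bottom. After length correction it was -0.51, no longer past 1.5-fold.

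**Figure D3:**
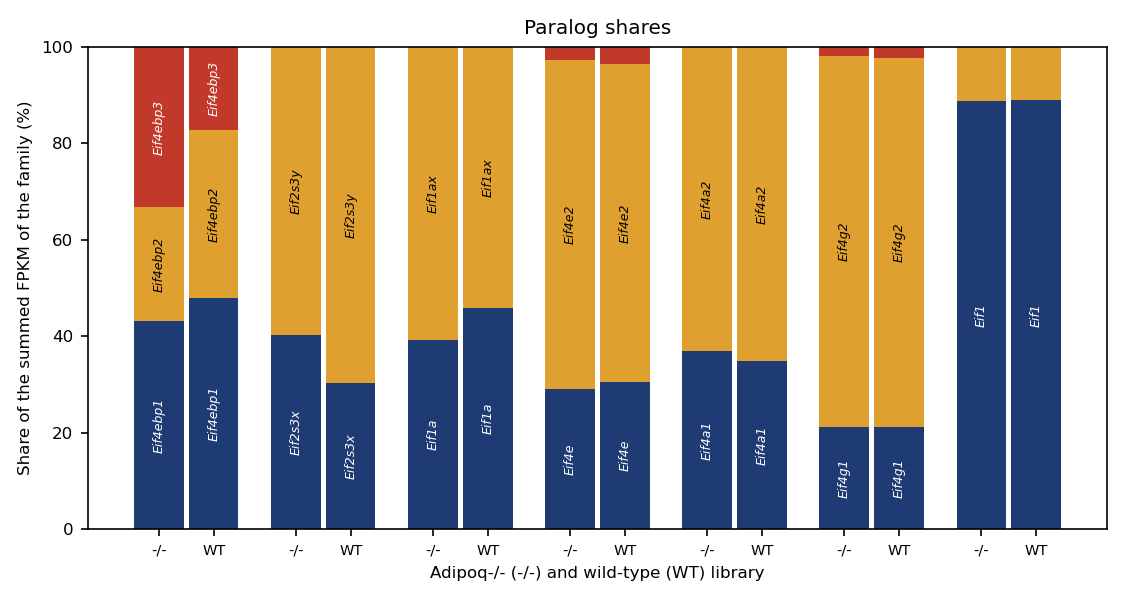
Share of each paralog in the summed FPKM of its family, with the Adipoq-/- library left of the wild-type library in each pair. The 4E-BP family shows the widest shift, with Eif4ebp3 at 33.2% in the Adipoq-/- and 17.2% in the wild-type library. Eif2s3y follows at 59.6% in the Adipoq-/- and 69.8% in the wild-type library. The plot leaves out the Eif2s3x copy Gm2223 (40.7% and 52.3% with its FPKM added without rescaling for length).

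Short stretches around the annotated transcript starts are shown for Eef1a1, Eef1b2 and Eif4e2, which were higher, for the scaffold genes Eif4g1 and Eif4g3 and the 4E-T gene, which were lower, and for Eif3f as an example of a pyrimidine-rich start. Messenger RNAs of many translation factors are known to begin with a C followed by a run of pyrimidines, the terminal oligopyrimidine (TOP) tract through which mTORC1 controls their translation. Sequences are from RefSeq (GRCm38.p6), each with 60 bases before and 20 from the annotated start. Capitals mark the letters CCGGAAGT, which hold the GGAA core bound by ETS-family factors. They also mark any C with at least 4 further pyrimidines after it, where this run overlaps the window from 5 bases before to 6 after the start.
Eef1a1 (chr9:78481705-78481784, minus strand): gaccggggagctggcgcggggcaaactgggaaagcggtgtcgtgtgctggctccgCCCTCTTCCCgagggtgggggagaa
Eef1b2 (chr1:63176771-63176850, plus strand): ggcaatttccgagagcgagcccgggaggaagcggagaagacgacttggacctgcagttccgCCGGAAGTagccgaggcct
Eif4e2 (chr1:87213851-87213930, plus strand): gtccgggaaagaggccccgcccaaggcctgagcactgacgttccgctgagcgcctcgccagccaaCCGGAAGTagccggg
Eif3f (chr7:108934355-108934434, plus strand): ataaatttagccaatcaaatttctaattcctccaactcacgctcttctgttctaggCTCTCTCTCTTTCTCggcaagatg
Eif4g1 (chr16:20672667-20672746, plus strand): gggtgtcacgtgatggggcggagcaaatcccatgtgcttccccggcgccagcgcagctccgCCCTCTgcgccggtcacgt
Eif4g3 (chr4:137993395-137993474, plus strand): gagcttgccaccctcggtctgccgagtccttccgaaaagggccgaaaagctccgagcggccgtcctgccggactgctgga
Eif4enif1 (chr11:3202293-3202372, plus strand): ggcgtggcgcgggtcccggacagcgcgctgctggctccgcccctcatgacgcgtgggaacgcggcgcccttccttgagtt
In Eef1b2 the letters CCGGAAGT begin at base 2 and in Eif4e2 at base 6 of the annotated transcript. Eef1a1 has a pyrimidine run of 10 bases across its annotated start and Eif3f one of 15 bases. Both runs begin before that start, so part of each lies outside the annotated transcript. The annotated transcript of Eef1a1 opens with a T rather than the C of a TOP tract. Where these messenger RNAs begin in liver was not measured, so neither run is shown to be a TOP tract.

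Promoters of 300 bases (250 before and 50 after the most upstream start) were found for 45 of 58 members. CCGGAAGT was present on either strand in 6 of the 45 (13.3%), in 9.13% of the 7109 promoters matched to genes tested, and in 3.99% of all 27025 promoters. The 6 were those of Eef1b2, Eif2b2, Eif2b4, Eif3d, Eif3l and Eif4e2. All 6 genes had a relative log2 ratio above 0 (median 0.09), as did 21 of the 39 members whose promoter lacks these letters (median 0.01). The sign depended on the centring for some: Eif3l (0.001), Eif2b4 (0.04) and Eif3d (0.08) were at -0.078, -0.045 and -0.00086 at equal upper quartiles. A pyrimidine tract at or within a few bases of the annotated start was present in 8 of 45 (17.8%) and in 14.5% of the promoters of genes tested. The 8 genes had a median ratio of 0.02 and included both Eef1a1 and Eif4g1, which lay on opposite sides of 0. TATAAA was found in 5 and CCAAT in 12 of the 45 (11.1% and 26.7%), against 7.60% and 39.6% of the promoters of genes tested. These matches are letters in a window and were not tied to the differences.

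Among the members known for TOP messenger RNAs, 8 of 9 lay above the all-gene median, with a median of 0.33. Of all genes averaging 10 FPKM or more, 60.5% lay above it. On FPKM as deposited, 5 of the 9 were higher in the Adipoq-/- library, against 44.1% of all genes at that level. The eEF1 genes (Eef1a1, Eef1b2, Eef1d and Eef1g) and Eif3h were at 0.33 or more. Eef2 (0.01), Eif3e (0.11) and Eif3f (0.13) lay closer to 0, and Eif4b was at -0.30. The cytosolic ribosomal protein genes, whose messenger RNAs are the best known of the TOP class, had a median of 0.55, with 79 of 80 above 0. Their transcripts were shorter, with a median length of 940 bases against 1939 bases for the eEF1 genes. With length corrected for, the medians were 0.28 for ribosomal proteins and 0.56 for eEF1. The length used was that of the longest coding transcript, which may not be the form present in liver. The gap between the corrected medians therefore rests on lengths that were not checked in these data.

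The 4 subunit genes of eIF2 itself did not move together. Eif2s1, the alpha subunit that stress kinases phosphorylate, was at 13.7 FPKM in the Adipoq-/- and 11.8 FPKM in the wild-type library (relative log2 ratio 0.35). Eif2s2, the beta subunit, was at 22.8 FPKM in the Adipoq-/- and 24.4 FPKM in the wild-type library (0.05). With the FPKM of near-identical pseudogene rows added to each, Eif2s1 was at 0.28 and Eif2s2 at 0.29. These sums were not rescaled for length and overweight the shorter copies. How far the difference between Eif2s1 and Eif2s2 depends on read assignment was therefore not settled. Eif2s3x, the X-linked gamma subunit, was at 18.5 FPKM in the Adipoq-/- and 20.02 FPKM in the wild-type library (0.05). The Y-linked gamma subunit Eif2s3y differed most, at 27.4 FPKM in the Adipoq-/- and 46.2 FPKM in the wild-type library, with a relative log2 ratio of -0.58 just short of 1.5-fold. It was past 1.5-fold lower with no minimum and with a minimum of 5 FPKM. The same held on FPKM as deposited (-0.73), at equal summed FPKM (-0.89) and at equal upper quartiles (-0.66), but not after length correction (-0.57). It was present in both libraries, which are labelled male. Eif2s3y held 59.6% of the gamma subunit sum in the Adipoq-/- and 69.8% in the wild-type library. With the FPKM of the identical pseudogene row Gm2223 added to Eif2s3x, the share of Eif2s3y was 40.7% in the Adipoq-/- and 52.3% in the wild-type library. It thus remained lower in the Adipoq-/- library. Gm2223 aligned over 1350 bases and Eif2s3x was 3647 bases long. The sum was not rescaled, so it overstates Eif2s3x and does not show a change in the order of the paralogs.

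Other Y-linked genes, looked up after this value was seen, did not all move with Eif2s3y. Ddx3y was at 7.45 FPKM in the Adipoq-/- and 11.4 FPKM in the wild-type library (-0.40). Uty was at 3.13 FPKM in the Adipoq-/- and 2.40 FPKM in the wild-type library (0.43), and Kdm5d at 1.36 and 1.39 FPKM (Adipoq-/- and wild type, 0.14). The alternative carriers of initiator tRNA lay on either side of 0. Eif2a was at 19.8 FPKM in the Adipoq-/- and 26.1 FPKM in the wild-type library (-0.23), and Eif2d at 12.0 FPKM in the Adipoq-/- and 11.6 FPKM in the wild-type library (0.20). An exon of Eif2a overlaps Serp1 on the opposite strand, which was at 70.9 FPKM in the Adipoq-/- and 57.2 FPKM in the wild-type library.

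The 5 subunit genes of eIF2B, the exchange factor that recharges eIF2 with GTP, had closer ratios than those of eIF2 or eIF3. Their relative log2 ratios lay between -0.17 and 0.11, with a median of 0.04. Eif2b3 was the lowest in level and ratio, at 6.79 FPKM in the Adipoq-/- and 8.74 FPKM in the wild-type library. Eif2b2 was the most abundant, at 21.8 FPKM in the Adipoq-/- and 22.6 FPKM in the wild-type library. Eif2b1 (15.9 and 16.3 FPKM, Adipoq-/- and wild type), Eif2b4 (17.4 and 19.0 FPKM) and Eif2b5 (14.2 and 15.9 FPKM) lay between them. On the deposited values all 5 were slightly lower in the Adipoq-/- library.

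The 13 genes of eIF3, the scaffold on the small subunit, had a median relative log2 ratio of 0.08, and 9 of 13 lay above 0. The highest ratios belonged to Eif3i, Eif3k and Eif3h. Eif3i was at 92.1 FPKM in the Adipoq-/- and 72.4 FPKM in the wild-type library (0.49), Eif3k at 65.9 FPKM in the Adipoq-/- and 55.7 FPKM in the wild-type library (0.39), and Eif3h at 131 FPKM in the Adipoq-/- and 115 FPKM in the wild-type library (0.33). These are among the most abundant and shortest of the complex. Eif3a and Eif3b, large subunits of the core, lay slightly below 0, with Eif3a at 11.0 FPKM in the Adipoq-/- and 13.2 FPKM in the wild-type library (-0.09) and Eif3b at 6.86 FPKM in the Adipoq-/- and 8.29 FPKM in the wild-type library (-0.09). Eif3j, a loosely bound subunit, was the least abundant, at 5.14 FPKM in the Adipoq-/- and 6.24 FPKM in the wild-type library.

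The spread of subunit levels within eIF3 was wide in both libraries. Eif3h exceeded Eif3j 25.4-fold in the Adipoq-/- and 18.5-fold in the wild-type library. Across the 13 genes the ratio followed the level (Spearman rho 0.86) and the length (rho -0.70), as a description of points that share the same libraries. After length correction the ratios ran from -0.22 for Eif3g to 0.31 for Eif3i, with Eif3k at 0.12 and Eif3h at 0.22. The remaining subunits lay between -0.03 and 0.15 before correction. Eif3c was at 23.8 FPKM in the Adipoq-/- and 25.4 FPKM in the wild-type library, Eif3d at 24.2 and 25.5 FPKM, Eif3e at 31.1 and 31.9 FPKM, Eif3f at 84.6 and 85.7 FPKM, Eif3g at 30.7 and 34.9 FPKM, Eif3l at 28.1 and 31.3 FPKM, and Eif3m at 37.3 and 37.4 FPKM (Adipoq-/- and wild type in each pair).

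The group of start codon factors lay close to the all-gene median, 3 of 6 above it. Whether Eif1ad, placed in this group, serves in that step was not checked here. Eif1, which keeps the scanning complex open, was at 93.3 FPKM in the Adipoq-/- and 104 FPKM in the wild-type library (-0.002). Eif5, the GTPase activator of eIF2, was at 63.3 FPKM in the Adipoq-/- and 77.0 FPKM in the wild-type library (-0.13). The eIF1A genes shifted against each other. The X-linked Eif1ax was at 32.3 FPKM in the Adipoq-/- and 29.1 FPKM in the wild-type library (0.29, and -0.01 at equal summed FPKM), and the autosomal Eif1a at 20.8 FPKM in the Adipoq-/- and 24.7 FPKM in the wild-type library (-0.09). Eif1ax thus held 60.8% of their sum in the Adipoq-/- and 54.2% in the wild-type library. Eif1b (11.9 FPKM in the Adipoq-/- and 12.9 FPKM in the wild-type library) and Eif1ad (9.44 and 9.81 FPKM, Adipoq-/- and wild type) had ratios of 0.04 and 0.10.

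Late factors differed from one another. Eif5b, the GTPase that joins the subunits, was low in both libraries, at 1.75 FPKM in the Adipoq-/- and 3.16 FPKM in the wild-type library (-0.44). Eif6, which keeps free large subunits apart from small ones and is known in mouse liver as a regulator of lipogenesis, was at 87.7 FPKM in the Adipoq-/- and 80.3 FPKM in the wild-type library (0.28). Eif5a, the hypusine-bearing factor that helps the ribosome past difficult peptide bonds, was at 229 FPKM in the Adipoq-/- and 211 FPKM in the wild-type library (0.27). Eif6 and Eif5a were higher as deposited too but lay below 0 at equal summed FPKM (-0.034 and -0.045). The symbols Eif2c1 to Eif2c3 are older names of the Argonaute genes Ago1 to Ago3, which act in microRNA silencing and are not initiation factors. They were among the lowest members, with Eif2c1 at 1.62 FPKM in the Adipoq-/- and 2.39 FPKM in the wild-type library, Eif2c2 at 0.503 and 0.598 FPKM, and Eif2c3 at 0.384 and 0.912 FPKM (Adipoq-/- and wild type).

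Transcript length moved with the ratio in these libraries. Over the 11571 genes with a length in GENCODE M21 (the longest coding transcript), Spearman rho was -0.44, and over the 56 members it was -0.42. All genes under 1000 bases had a median relative log2 ratio of 0.36, and those of 3000 bases or more -0.11. Of the members of 1000 to 2000 bases, 15 of 19 lay above 0, as did 59.7% of all genes of that length. Of the members of 3000 bases or more, 9 of 21 did, and 31.7% of all genes of that length. The eEF1 genes (1794 to 2842 bases) lay above the running median for their length, at 0.45 to 0.56 after correction. Which transcript form of each gene was present in liver was not tested, and a shorter form would call for a different correction. The eIF4G genes (5638 to 8134 bases) lay below it, at -0.21 to -0.43. Eif4ebp3, at 744 bases, came down from 1.33 to 0.97 on correction. With lengths corrected for, 39 of 56 members lay above 0, with a median of 0.10.

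**Figure D4:**
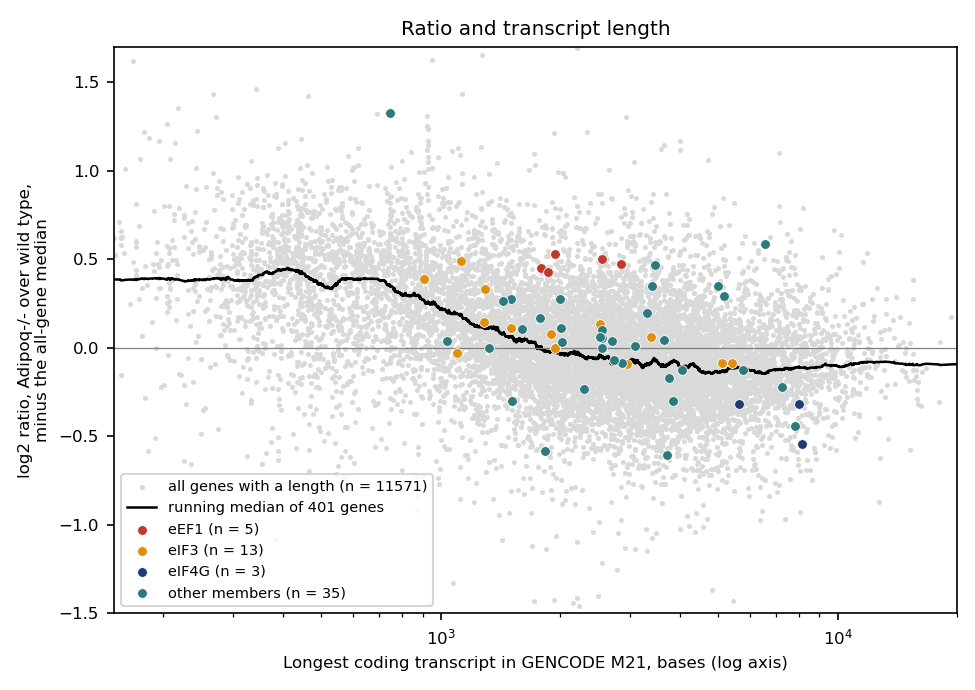
Relative log2 ratio (Adipoq-/- over wild type) against the length of the longest coding transcript (log axis) for 11571 genes in grey, with the running median over genes of like length as a line and members coloured by group. The line declines with length, the eEF1 genes lie above it and the eIF4G genes below it, and the eIF3 genes lie within -0.22 to 0.31 of it.

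Many factors have processed pseudogenes that can take up reads. Of 1791 rows of the tables annotated as pseudogenes in GENCODE M21, 38 aligned to a member at 90% identity or more over at least 50% of their length. They belonged to 18 members and summed to 2755 FPKM in the Adipoq-/- and 2482 FPKM in the wild-type library. The 5 rows of Eef1a1 copies came to 1834 FPKM in the Adipoq-/- and 1578 FPKM in the wild-type library. The largest, Gm13456, was 98.6% identical to Eef1a1 over 1317 aligned bases, at 934 FPKM in the Adipoq-/- and 805 FPKM in the wild-type library. The 8 copies of Eif1 summed to a higher FPKM than Eif1 itself, 207 FPKM in the Adipoq-/- and 222 FPKM in the wild-type library. They aligned over 336 to 348 bases and Eif1 was 1322 bases long, so the higher FPKM does not mean more reads. Eif4a-ps4, 99.9% identical to Eif4a1, was at 94.9 FPKM in the Adipoq-/- and 98.7 FPKM in the wild-type library, and Gm2223, 100% identical to Eif2s3x over its length, was at 21.3 FPKM in the Adipoq-/- and 22.2 FPKM in the wild-type library.

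The levels of these members are therefore uncertain, since reads cannot be assigned firmly among such copies. Of the copies, 33 of 38 lay above the all-gene median (median 0.16), against 77.5% of the 1577 other pseudogene rows tested (median 0.32). Copies were added to their parents as FPKM, without rescaling for their shorter length. Eef1a1 then came to 6472 FPKM in the Adipoq-/- and 5347 FPKM in the wild-type library and kept a relative log2 ratio of 0.43. Eif4a1 came to 235 FPKM in the Adipoq-/- and 239 FPKM in the wild-type library, above Eif4a2, where the rows of the genes alone put Eif4a2 first. Eif4a-ps4 aligned over 1218 bases and Eif4a1 was 1774 bases long. The sum therefore overstates Eif4a1 and does not show that it exceeded Eif4a2. The ratio of Eif2s2 moved more. Its copy Gm9892, 99.5% identical, was at 37.7 FPKM in the Adipoq-/- and 30.4 FPKM in the wild-type library, and the ratio became 0.29 with it, against 0.05 without it. Eif4ebp3, Eif2s3y, Eif4enif1 and the eIF4G genes had no such copy among these rows.

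Genes acting on the factors mostly lay below the all-gene median, none by 1.5-fold. For the kinases and phosphatase subunits that control eIF2 phosphorylation, 5 of 6 lay below 0 (median -0.15). The lowest was Eif2ak3, the kinase PERK, at 2.50 FPKM in the Adipoq-/- and 4.32 FPKM in the wild-type library (-0.45), and Eif2ak4, the kinase GCN2, alone lay above 0 (0.02). Of the genes with 5 FPKM in at least 1 library, Eif2ak1 was at 5.87 FPKM in the Adipoq-/- and 7.60 FPKM in the wild-type library (-0.17), and Ppp1r15b, a subunit of the eIF2 phosphatase, at 10.9 FPKM in the Adipoq-/- and 12.98 FPKM in the wild-type library (-0.08). For a list of mTORC1 genes, its regulators and other genes acting on initiation, 12 of 15 lay below 0 (median -0.10). The list pools activators and inhibitors, so this count gives no direction for the pathway. The lowest was Pdcd4, an inhibitor of eIF4A, at 28.01 FPKM in the Adipoq-/- and 41.4 FPKM in the wild-type library (-0.40). The highest was Rheb, the activator of mTORC1, at 29.3 FPKM in the Adipoq-/- and 29.4 FPKM in the wild-type library (0.14). These lists hold long transcripts, with median lengths of 4419 and 4586 bases, and 31.7% of all genes of 3000 bases or more lay above 0.

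Partners of later steps were mixed. Of the poly(A)-binding group 2 of 5 lay above 0 (median -0.07). Its lowest gene with 5 FPKM in at least 1 library was Paip1, a partner of poly(A)-binding protein, at 4.10 FPKM in the Adipoq-/- and 5.49 FPKM in the wild-type library (-0.20), and its highest Paip2, an inhibitor of poly(A)-binding protein, at 79.3 FPKM in the Adipoq-/- and 81.4 FPKM in the wild-type library (0.11). For termination and recycling 2 of 7 lay above 0 (median -0.08), with the release factor Gspt1 lowest at 15.2 FPKM in the Adipoq-/- and 24.5 FPKM in the wild-type library (-0.50) and the recycling factor Denr highest at 30.8 FPKM in the Adipoq-/- and 30.1 FPKM in the wild-type library (0.18). Both scanning helicases lay below 0, with Ddx3x at 15.3 FPKM in the Adipoq-/- and 21.9 FPKM in the wild-type library (-0.34). Of the enzymes that modify eIF5A and eEF2, 5 of 6 lay above 0 (median 0.20) and 4 of 6 were higher in the Adipoq-/- library as deposited. Their extremes were Dph3 of diphthamide synthesis at 30.2 FPKM in the Adipoq-/- and 22.2 FPKM in the wild-type library (0.58) and Dph5 of the same pathway at 4.83 FPKM in the Adipoq-/- and 5.73 FPKM in the wild-type library (-0.06).

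Mitochondrial translation factors, which serve a separate ribosome, did not follow the eEF1 genes. Of 10, 4 lay above 0 (median -0.14). Mtif2, the mitochondrial initiation factor, was at 11.3 FPKM in the Adipoq-/- and 19.9 FPKM in the wild-type library (-0.61), past 1.5-fold lower. Mrrf, the recycling factor, was highest at 17.4 FPKM in the Adipoq-/- and 16.2 FPKM in the wild-type library (0.25), and Tufm, the counterpart of eEF1A, was at 24.0 FPKM in the Adipoq-/- and 26.6 FPKM in the wild-type library (0.01). The 20 cytosolic aminoacyl-tRNA synthetases, which charge the tRNAs that eEF1A carries, had a median of -0.06 with 9 above 0. With 1 library per genotype none of these list differences was tested.

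Markers of other cells were looked at beside the eEF1 genes. Of 9 Kupffer cell marker symbols 8 were found, and 6 of 8 lay above 0 (median 0.24), with a summed level of 123 FPKM in the Adipoq-/- and 122 FPKM in the wild-type library. The 4 erythroid markers found of 6 all lay above 0 (median 0.32) and summed to 11481 FPKM in the Adipoq-/- and 10063 FPKM in the wild-type library. For stellate cells 6 of 7 were found and 4 of 6 lay above 0 (median 0.23), at sums of 77.3 and 76.2 FPKM, and for sinusoidal endothelium 4 of 6 (median 0.08), at 59.1 and 55.9 FPKM (Adipoq-/- and wild type in each). Of 7 lymphocyte markers 2 were found, of 6 skeletal muscle markers 2 and of 6 pancreatic acinar markers 1, all under 3 FPKM in both libraries. At least 1.5-fold higher among all these markers were Marco of Kupffer cells, at 3.72 FPKM in the Adipoq-/- and 1.26 FPKM in the wild-type library (1.21), and the acinar Cela2a, at 1.96 FPKM in the Adipoq-/- and 0.517 FPKM in the wild-type library (1.11). None of the markers found was listed at 0, and those not found were not analysed here. Their part in the eEF1 difference was not tested.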

How the data were processed

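Liver mRNA was sequenced in 2 libraries, 1 for Adipoq-/- and 1 for wild-type mice, grouped by the genotype label. The authors deposited FPKM for each gene symbol. TopHat, Cuffdiff and the builds mm9 and NCBIM37 are named in the submitters' processing notes. What each did, its version, the annotation, strand use and filters were not given in the sources used here. Low values showed no steps of whole reads (at most 5 of 1298 genes under 1 FPKM shared a ratio to 3 decimals), so depth is unknown and no count test or interval was possible.

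Of 26 symbols listed in 2 rows, none a member, only the higher row entered. Ratios used a pseudocount of 1 FPKM, a minimum of 1 FPKM in either library and centring on the all-gene median, and the calculation was tested on simulated data. The alternatives were pseudocounts of 0.1 and 0.5, no minimum or 5 FPKM, other scalings, length correction (ratio minus its running median over genes of like length), summed rows and omission of the Argonaute genes. Summing with pseudogene rows was chosen after seeing the data, and added FPKM without rescaling for length. Transcript lengths, exon overlaps and pseudogenes came from GENCODE M21 (GRCm38), by symbol or RefSeq synonym, and no coordinates were moved between builds. Copies were found with BLAST 2.17.0. Python 3.11.15 with pandas 2.3.3 and scipy 1.17.1 was used.

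Members, role groups and gene lists were chosen with earlier results of these data known, and Eif1a was placed in its role group after the symbols were seen. The naming rule was: the 5 most abundant members, the highest and lowest ratio of each role group over 5 FPKM, all members 1.5-fold apart and all 4E-BPs, with any other member allowed. Of the other translation lists it took the highest and lowest ratio over 5 FPKM, and Tufm, Alb, Marco, Cela2a, Eif2ak3, Eif2ak4, Ankhd1 and the Y-linked genes were added after their values were seen.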

Additional observations from a re-analysis of the deposited data

How the results depend on the processing

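The direction of the list depended on scaling. On FPKM as deposited the median member ratio was -0.094 with 19 members above 0, at equal summed FPKM it was -0.25 with 13, and at equal upper quartiles -0.030 with 25. Under the other settings tried, which centre on the all-gene median or on genes of like length, the median stayed within 0.1 of the 0.06 reported. Role medians moved in the same way. On FPKM as deposited they were -0.13 for the start codon factors, -0.10 for eIF2, -0.12 for eIF2B, -0.073 for eIF3, -0.22 for the eIF4 group, -0.073 for the eIF4E regulators and 0.32 for eEF1. At equal summed FPKM they were, in the same sequence, -0.29, -0.25, -0.27, -0.23, -0.38, -0.23 and 0.16. At equal upper quartiles they were -0.063, -0.030, -0.045, -0.00086, -0.15, -0.0011 and 0.39. The sign thus turned under all 3 scalings for each role except the eIF4 group, below 0 in each, and eEF1, above 0 in each. After length correction the eIF4 group had a median of 0.018, with 6 of 11 genes above 0. The median of the start codon factors was then -0.0098. A minimum of 5 FPKM took the eIF4 group to -0.22, since Eif4e3 was no longer in it and the all-gene median moved. The count of members 1.5-fold higher became 1 with no minimum, with a minimum of 5 FPKM, on FPKM as deposited, at equal sums and at equal upper quartiles. Of all genes, in the same order, 836 of 13326, 476 of 7287, and 387, 182 and 530 of 11985 were 1.5-fold higher. Eif4ebp3 passed under every setting tried. The count of members 1.5-fold lower, 1 of 56 as reported, was 3 with a pseudocount of 0.1, 2 with no minimum and 2 with a minimum of 5 FPKM. For all genes these counts were 313 of 11985 as reported, then 707 of 11985, 345 of 13326 and 227 of 7287. It was 4 members on FPKM as deposited, 8 at equal sums, 3 at equal upper quartiles and 0 after length correction. For all genes these counts were 739, 1495 and 525 of 11985, and 318 of 11571 after length correction. Omitting the Argonaute genes or summing with pseudogene rows moved none of these medians and counts beyond the tolerance of 0.1 (log2) or 1.5 times. Summing with pseudogene rows did move paralog shares, to 30.5% in the Adipoq-/- and 16.0% in the wild-type library for Eif4ebp3, 40.7% and 52.3% for Eif2s3y, and 50.5% and 49.6% for Eif4e2. As FPKM was added without rescaling for length, the shorter copies are overweighted in these shares. No paired analysis was possible because each genotype has 1 library, and for the same reason no replicate could be left out. Precision is limited by the unknown depth and the absence of replicates.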
